A study of Rattus norvegicus with 4 samples.

Results

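The Zfp genes of the rat encode zinc finger proteins that were numbered as they were found and named for the finger, a small loop of the protein held by a zinc ion that usually grips DNA. They were followed here in the adrenal medulla, the core of the adrenal gland, in which chromaffin cells release adrenaline and noradrenaline, in unstressed rats and in rats immobilized for 2 h, a standard form of stress in rodents. Total RNA had been hybridised to 4 single-colour arrays, 2 from unstressed and 2 from immobilized animals. Strain, sex and age of the animals, whether immobilization was repeated, and how soon tissue was taken are not given in the sources used here. Nothing in the labels ties an array to an animal of its own, so p-values cover only the spread between these samples, possibly a technical one. With so few arrays every value has limited precision.

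Members were the genes named alone on a probe set, the group of short probes that reports on a transcript, with a symbol made of Zfp and a number, with or without a further letter or number. The 3 genes Zfp36, Zfp36l1 and Zfp36l2, which encode RNA-binding proteins of another kind, were left out. This gave 216 genes on 335 probe sets, out of 14217 genes named by a single symbol on the array. Each gene was read from its probe set with the highest mean level over the 4 arrays, a choice that does not use the difference between groups. Members were thus chosen by symbol, but the set itself was put together with its change in these arrays known, so its counts and medians are a description and support nothing by themselves.

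Many Zfp proteins carry rows of Krüppel-type fingers, each of which contacts a few bases, so that a row reads a long DNA site. A large share of such proteins in mammals also carry a Krüppel-associated box, KRAB, which binds the corepressor Trim28, and Trim28 brings in enzymes that compact chromatin, among them Setdb1. These proteins are known for silencing transposable elements and imprinted genes. Other members carry no such box and act as activators, as RNA-binding proteins or as ubiquitin ligases, so the name does not stand for a single function. Sequences of related members can be alike, and a probe set may then take up RNA of a relative.

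Of the 216 genes, 182 had a mean level above the filter on dim probe sets, set at the 40th percentile of all probe sets, and were tested. Changes are differences of log2(intensity + 16), immobilized minus unstressed, and understate the change of dim genes. A gene is said to have risen or fallen where its Benjamini-Hochberg adjusted p in limma, over all 18625 tested probe sets, was under 0.05. Of the 182 tested Zfp genes 57 fell, 9 rose and 116 did not pass. As background, 21.8% of the 10320 tested genes fell and 11.2% rose, against 31.3% and 4.95% of the Zfp genes, and nothing is read from the difference because the set was chosen with this contrast known. The median log2 change was -0.44 for the Zfp genes, with quartiles of -0.76 and -0.03, and -0.13 for the 10138 other genes. The readings of the groups did not overlap for 144 Zfp genes, lower after immobilization in 119 and higher in 25. Without overlap were 69.7% of all tested genes, 45.6% lower and 24.1% higher, and 67.8% of all tested probe sets.

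Lower readings were mostly of moderate size and spread over many members, in a set chosen with this contrast known. The changes ran from -2.62 to 3.14, and 139 of the 182 lay below 0, or 76.4%, against 61.3% of the other genes. Of the 57 falls, 25 were at least 2-fold and 2 at least 4-fold, and their median log2 change was -0.96. Of the 9 rises, 6 were at least 2-fold and 2 at least 4-fold. Called or not, 25 members were 2-fold or more lower and 6 higher, beside 828 and 606 of the 10320 tested genes. The median intensity of the tested members was 2057 and 1894 without stress and 1486 and 1457 after it. Over all tested probe sets it was 2577 and 2503 without stress and 2297 and 2304 after it. Between each immobilized and each unstressed array, 132 to 142 of the 182 members were lower on the immobilized one, with median differences of -0.34 to -0.52. Over all tested probe sets the median differences of the same pairs were -0.09 to -0.16. Between arrays of the same group the median absolute difference of a member was 0.21 (unstressed) and 0.16 (immobilized).

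**Figure D1:**
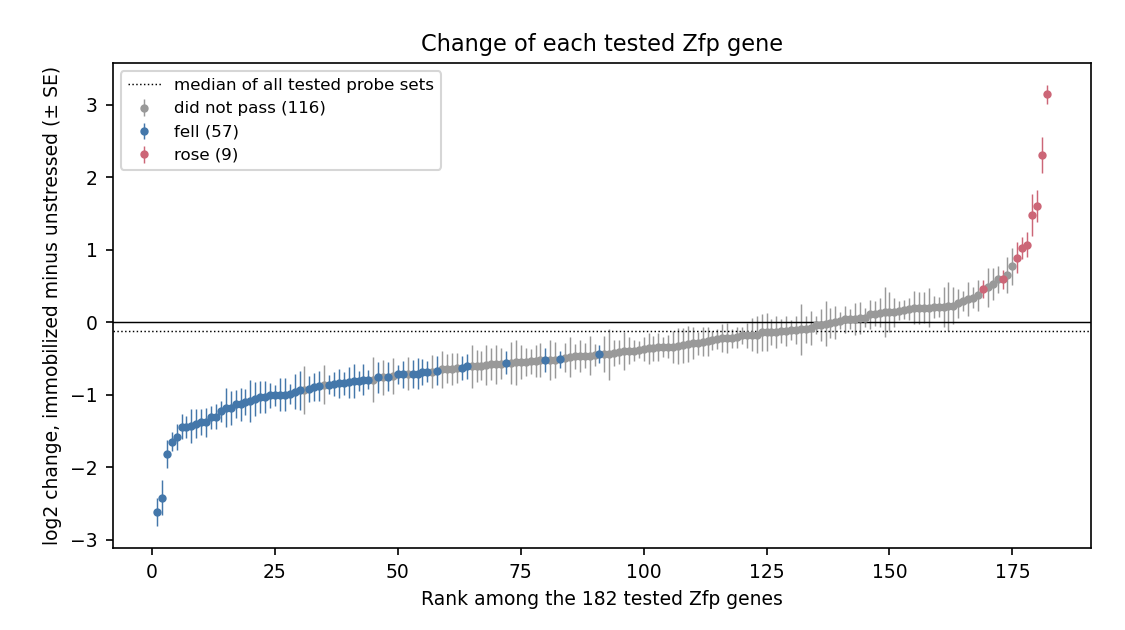
Change of each of the 182 tested Zfp genes, immobilized minus unstressed on the log2 scale, in rank order. Points are estimates and bars 1 SE from limma, with 2 arrays per group. Falls (57) are blue, rises (9) red and genes that did not pass (116) grey, and the dotted line is the median of all tested probe sets, -0.12. Most points lie below 0, and the largest rises, those of Zfp347 and Zfp536, stand apart at the right.

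Scaling and single arrays moved the counts. The deposited scaling puts the median of all tested probe sets at -0.12, and centring each array on its median puts it at 0.02. The Zfp genes had 42 falls and 12 rises after that centring and 45 falls and 12 rises after quantile normalization. Over all tested probe sets 13.4% then fell and 15.3% rose after centring, 17% and 13.9% after quantile normalization, against 19.4% and 11.7% with the deposited scaling. Their median stayed 0.32 and 0.26 below that of all tested probe sets, against 0.32 with the deposited scaling. Without immobilized 1 there were 17 falls and 4 rises, and without immobilized 2 there were 14 and 3, where 5.84% and 4.79% of all tested probe sets fell and 5.22% and 4.21% rose. Without unstressed 1 there were 52 and 15, where 20.4% fell and 14.2% rose. The 12 falls that passed with any array left out were those of Zfp217, Zfp266, Zfp292, Zfp395, Zfp414, Zfp512b, Zfp637, Zfp688, Zfp691, Zfp710, Zfp775 and Zfp958l1, and the 3 such rises were those of Zfp347, Zfp536 and Zfp612.

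Markers of the cells in the tissue were read in the same way. Adrenal cortex markers were bright in samples labelled as medulla: the summed intensity of the 8 cortex markers found, of 11 listed, was 269597 and 306832 without stress and 331472 and 245986 after immobilization, so the groups overlapped, and 2 of 7 tested rose. Scarb1 rose by 1.76, from 12445 and 14736 to 54747 and 38296, and Nr5a1 by 0.47. Cyp11a1, Cyp11b1 and Cyp21a1 were lower without overlap between groups, at -0.35, -0.64 and -0.27, and did not pass. Star and Hsd3b1 had 0.07 and -0.24 with overlap, and the median over the 7 tested was -0.24. Cyp17a1 of that list read within the range of the array's Bacillus controls on every array. The sums also overlapped for the chromaffin cell list (10 of 11 found, 338285 to 374782 against 322085 to 447615), the Schwann and sustentacular list (5 of 7, 10775 to 13839 against 12312 to 13749), the fibroblast list (6 of 6, 56739 to 77986 against 59744 to 73179) and the blood and immune list (6 of 8, 18107 to 22948 against 22799 to 22844). The sums are carried by the brightest markers and hide single ones: Slc18a2 of the chromaffin list rose, from 3301 and 2314 to 7997 and 7683, and Gfap and S100b of the Schwann and sustentacular list rose by 1.76 and fell by 0.59, while no marker of the fibroblast or the blood and immune list passed. The sum of the 5 endothelial markers found, of 6 listed, was lower after immobilization, at 29652 and 30361 against 32121 and 40956, carried by Kdr, which fell by 0.79, and Tek (-0.33), while Flt1 rose by 1.45, Pecam1 and Vwf had 0.54 and 0.36, and the median over the 5 was 0.36. Their part in the Zfp changes was not tested, and in such bulk samples fewer cells of a type and less RNA per cell cannot be told apart. As a check of RNA quality, the Actb control gave 3' to 5' ratios of 2.15 and 1.9 without stress against 1.99 and 1.62 after immobilization, which also overlap.

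The largest rise was that of Zfp347. Its readings were 4263 and 3978 without stress against 38851 and 34306 after immobilization. It rose by 3.14 ± 0.13 (SE, n = 2 per group), or 8.83-fold (limma, adjusted p = 4.42e-05), and became the brightest member on the immobilized arrays. It was read by a single probe set, of a kind the maker marks as reading several transcripts of a gene. Zfp536, which encodes a repressor of neuronal differentiation, read 1453 and 880 against 5730 and 5630. It rose by 2.31 ± 0.25, or 4.97-fold, and the unstressed readings differed from each other more than the immobilized ones did. Zfp612 read 2281 and 1499 against 5769 and 5546 and rose by 1.60 ± 0.22.

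Zfp131, whose protein joins zinc fingers to a BTB domain that pairs proteins, read 1214 and 1038 against 2389 and 4201. It rose by 1.48 ± 0.29, and its immobilized readings lay far apart but above both unstressed ones. Without immobilized 2 the change was 1.08 (limma, adjusted p = 0.073). Zfp697 read 1707 and 1505 against 3370 and 3399, a rise of 1.07 ± 0.17. Zfp189 read 1884 and 2097 against 3953 and 4153, a rise of 1.02 ± 0.15. For both genes the readings agreed closely within each group and about doubled between them, at 2.10-fold and 2.03-fold.

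The remaining 3 rises were under 2-fold. Zfp667, which encodes a KRAB protein, read 3810 and 2526 against 6262 and 5305 and rose by 0.89 ± 0.21. Zfp655 read 7567 and 8080 against 10820 and 12812 and rose by 0.59 ± 0.13. Zfp326, whose protein belongs to a complex that couples transcription to splicing, read 6962 and 6855 against 8969 and 10148 and rose by 0.46 ± 0.12. The calls on Zfp189, Zfp326, Zfp655, Zfp667 and Zfp697 were lost without immobilized 1 (adjusted p of 0.0506 to 0.163 in limma) and without immobilized 2 (0.0625 to 0.206), and that on Zfp326 also without a filter (0.0511) and without the intensity trend (0.0734).

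**Figure D2:**
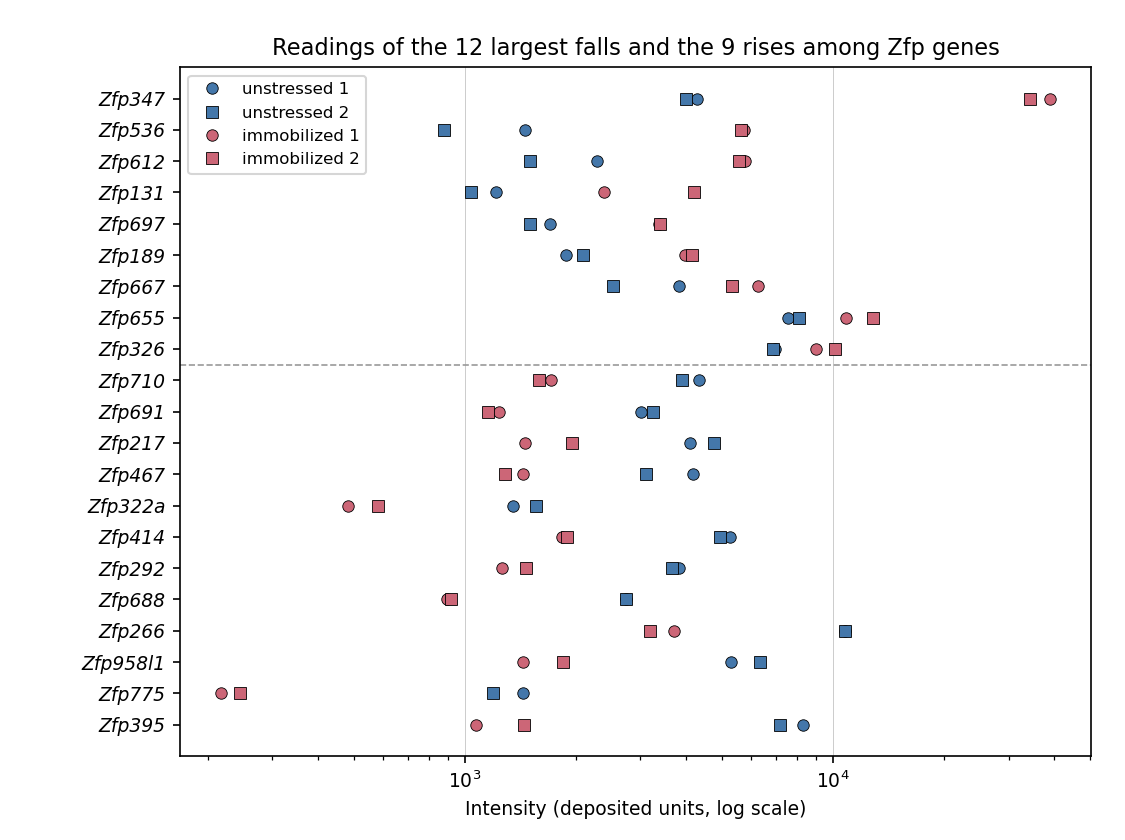
Intensity on each of the 4 arrays, on a log scale, for the 12 largest falls and the 9 rises among the Zfp genes, ordered by log2 change. Blue marks are unstressed and red marks immobilized arrays, circles replicate 1 and squares replicate 2. The groups do not overlap for any of the 21 genes, and Zfp347 lies at 34306 and 38851 on the immobilized arrays.

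The largest fall was that of Zfp395, whose human counterpart is known as papillomavirus binding factor. It read 8287 and 7194 without stress against 1071 and 1448 after immobilization, a change of -2.62 ± 0.19, or 6.13-fold lower (limma, adjusted p = 0.000306). Zfp775 read 1438 and 1189 against 218 and 245 and fell. Both immobilized readings of Zfp775 lie within the range of the 27 Bacillus control probe sets, 2.18 to 257, so its level there was not shown to lie above background. Against the highest control reading it was at least 4.85-fold lower, and the fitted change of -2.42, by which it is ranked, is no exact size. It was the single tested member with such a reading.

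Zfp958l1 read 5294 and 6356 against 1438 and 1842, a change of -1.82 ± 0.19. Zfp266 read 10799 and 10807 against 3693 and 3192, a change of -1.65 ± 0.13, or 3.14-fold lower, and it was among the brightest members before immobilization. Zfp688 read 2748 and 2736 against 896 and 919, a change of -1.58 ± 0.18. In each of these 3 genes the unstressed readings were above both immobilized readings by more than 2-fold.

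Zfp292, which encodes a large zinc finger protein first known as a regulator of the growth hormone gene, read 3808 and 3654 against 1262 and 1465 and fell by 1.44 on the log2 scale. Zfp217, whose human counterpart is an oncogene amplified in breast cancer, read 4100 and 4744 against 1454 and 1958 and fell by 1.38. Zfp414 read 5262 and 4937 against 1835 and 1898, and Zfp322a read 1354 and 1557 against 480 and 580, with changes of -1.44 and -1.43. Zfp467 (-1.40), Zfp691 (-1.38) and Zfp710 (-1.31) complete the 12 largest falls. None of these 12 had overlapping groups, and Zfp322a missed the threshold without immobilized 1 (limma, adjusted p = 0.053), as Zfp467 did without immobilized 2 (0.0515).

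To show where transcription of these genes starts, the promoters of the 3 rises, and of the 3 largest falls with a listed promoter, that passed with any array left out are printed, from RefSeq on the GRCr8 build, 250 bases before to 50 bases after the gene's start, 5′ to 3′ on the gene's strand. Capitals mark, on either strand, the cAMP response element core TGACG, its full palindrome TGACGTCA (which holds the core), the AP-1 site TGANTCA, the Nr4a element AAAGGTCA and the Egr site GCGNGGGCG. They lie at chr7:8117749-8118048 on the plus strand (Zfp347), chr1:99598994-99599293 on the minus strand (Zfp536), chr19:54963193-54963492 on the plus strand (Zfp612), chr4:78887780-78888079 on the plus strand (Zfp775), chr12:9475100-9475399 on the minus strand (Zfp958l1) and chr8:27337490-27337789 on the minus strand (Zfp266).
Zfp347: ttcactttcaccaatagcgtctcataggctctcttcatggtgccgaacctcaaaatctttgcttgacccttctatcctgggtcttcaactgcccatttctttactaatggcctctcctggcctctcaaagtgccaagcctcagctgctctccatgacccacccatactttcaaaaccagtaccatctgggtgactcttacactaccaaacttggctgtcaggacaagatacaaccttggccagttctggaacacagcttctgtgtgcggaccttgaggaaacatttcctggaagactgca
Zfp536: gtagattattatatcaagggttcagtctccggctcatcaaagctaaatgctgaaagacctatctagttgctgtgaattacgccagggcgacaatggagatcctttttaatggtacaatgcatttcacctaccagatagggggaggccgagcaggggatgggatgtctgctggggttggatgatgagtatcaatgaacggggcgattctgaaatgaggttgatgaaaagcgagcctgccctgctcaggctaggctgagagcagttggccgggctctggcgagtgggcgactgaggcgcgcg
Zfp612: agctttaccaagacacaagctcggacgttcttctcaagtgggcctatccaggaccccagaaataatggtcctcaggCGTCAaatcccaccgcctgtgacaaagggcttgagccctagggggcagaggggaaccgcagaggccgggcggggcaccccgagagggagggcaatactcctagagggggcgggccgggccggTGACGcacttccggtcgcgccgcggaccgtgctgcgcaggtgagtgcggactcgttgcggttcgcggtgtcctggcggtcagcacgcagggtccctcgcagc
Zfp775: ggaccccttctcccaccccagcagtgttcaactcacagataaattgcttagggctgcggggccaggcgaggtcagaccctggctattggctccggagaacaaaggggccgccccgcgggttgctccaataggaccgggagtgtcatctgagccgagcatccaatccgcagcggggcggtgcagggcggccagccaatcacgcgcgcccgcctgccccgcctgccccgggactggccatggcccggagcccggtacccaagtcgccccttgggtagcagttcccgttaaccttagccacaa
Zfp958l1: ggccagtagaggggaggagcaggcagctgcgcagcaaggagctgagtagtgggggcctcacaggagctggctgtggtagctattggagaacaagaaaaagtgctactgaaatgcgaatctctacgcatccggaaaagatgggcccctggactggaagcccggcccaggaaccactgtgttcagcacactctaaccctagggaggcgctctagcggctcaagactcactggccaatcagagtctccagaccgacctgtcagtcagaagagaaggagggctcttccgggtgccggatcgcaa
Zfp266: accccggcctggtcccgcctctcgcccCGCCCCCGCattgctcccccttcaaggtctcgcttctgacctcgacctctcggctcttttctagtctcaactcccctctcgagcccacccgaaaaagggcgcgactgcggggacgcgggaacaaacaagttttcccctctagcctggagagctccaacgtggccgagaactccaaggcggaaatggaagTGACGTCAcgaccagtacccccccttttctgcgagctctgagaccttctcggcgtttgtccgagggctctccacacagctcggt

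None of the 5 motifs was found in the windows of Zfp347, Zfp536, Zfp775 and Zfp958l1. Zfp395, the largest fall, was not among the genes matched to a promoter. The window of Zfp612 held the core 174 and 52 bases before the start, and that of Zfp266 held the full palindrome, and in it the core on both strands, 34 bases before the start and an Egr site 223 bases before it. A promoter was listed for 175 members, 149 of them tested, and the first listed start was taken where a gene had several. The core stood in 2 of 8 promoters of rises, 17 of 47 promoters of falls (36.2%) and 27 of 94 of tested members that did not pass (28.7%), against 33% of 8590 promoters of tested genes and 22% of all 27457 promoters. The full palindrome stood in 0, 1 and 5 of these, against 3.36% of promoters of tested genes and 1.91% of all. The AP-1 site stood in 0, 7 (14.9%) and 1 (1.06%), against 4.71% and 7.33%, the Egr site in 0, 4 and 9, against 10.8% and 5.29%, and the Nr4a element in 0, 0 and 0, against 0.885% and 1.29%. The median GC content was 62.8% in the rises, 55.7% in the falls, 57.2% in the members that did not pass and 61.3% over tested genes. These matches are a description of letters, not of binding.

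Of 22 members listed for a role known outside the family's naming, 20 were found and 19 tested, of which 6 fell, 1 rose and 12 did not pass, beside 21.8% and 11.2% of all tested genes. Zfp395 and the rise, Zfp189, are described above, and Zfp382 was too dim to be tested. Zfp148, an activator and repressor of GC-rich promoters also called ZBP-89, read 6413 and 6028 against 3647 and 3921 and fell by 0.72 on the log2 scale. Zfp110, which encodes a protein that binds a neurotrophin receptor, read 6728 and 8464 against 3590 and 3910 and fell by 1.01. Zfp91, which encodes a ubiquitin ligase, read 8023 and 8131 against 5770 and 6122 and fell by 0.44. The calls on Zfp148 and Zfp91 were lost with either immobilized array left out (adjusted p of 0.0685 to 0.178 in limma), and that on Zfp110 stood at 0.057 and 0.0503 there. Zfp68 read 4958 and 5127 against 3012 and 2721 and fell by 0.81, a call lost without immobilized 1 (0.052) and without immobilized 2 (0.0788). The call on Zfp91 was also lost after centring on the median (0.147), without a filter (0.0503) and without the intensity trend (0.0739).

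The paired corepressor genes Zfp503 and Zfp703 had opposite signs. Zfp503 read 2642 and 2449 against 1577 and 1701 and fell by 0.63, and Zfp703 read 3114 and 2281 against 3919 and 4108, a log2 change of 0.59 (limma, adjusted p = 0.0518). The call on Zfp503 was lost after quantile normalization (0.069), after centring on the median (0.0798), without unstressed 1 (0.0626) and with either immobilized array left out (0.169 and 0.13). Zfp423 and Zfp521, whose related proteins work with BMP signals and in cell differentiation, had changes of -0.71 (adjusted p = 0.0549) and 0.21 (0.607) in limma. Without unstressed 2 the change of Zfp423 was -0.94. With all arrays its dimmer tested probe sets had -0.08 and -0.20 (adjusted p of 0.815 and 0.534 in limma). Zfp687 fell by 1.10, from 3726 and 3036 to 1552 and 1578, while Zfp592, whose protein shares a chromatin complex with that of Zfp687, had 0.26 (0.375), and the difference between them was not tested. Zfp703, Zfp687 and Zfp592 were named after their values were seen.

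Several known members did not pass. Zfp260, an effector of alpha-adrenergic signals in heart muscle, had -0.45 (adjusted p = 0.0649 in limma), with readings of 8275 and 6561 against 5627 and 5184, and passed without unstressed 2, at -0.61 (0.0108). Zfp384, Zfp275 and Zfp106 had -0.38 (0.0556), -0.47 (0.0778) and -0.37 (0.138). Zfp106 passed without unstressed 1, at -0.57 (0.0149), and Zfp275 without unstressed 2, at -0.64 (0.0158), while Zfp384 passed with the filter at the 60th percentile (0.0496). Zfp207, whose protein helps chromosomes attach to the spindle, had -0.18 with a 95% interval of -0.47 to 0.11. Zfp143, an activator of small nuclear RNA genes, had 0.20 with an interval of -0.33 to 0.73. A dimmer tested probe set of Zfp207 and of Zfp143 had the opposite sign, at 0.42 and -0.31 (adjusted p of 0.0889 and 0.285 in limma). Zfp281, a regulator of stem cells, had 0.16 with an interval of -0.15 to 0.48. Zfp57, a KRAB protein that keeps imprints, was dim, at 645 and 524 against 615 and 458, and its groups overlapped.

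Higher without passing were Zfp462 and Zfp354a. Zfp462 read 3797 and 2213 against 4601 and 4526, a change of 0.65 (adjusted p = 0.0904 in limma). It passed without unstressed 1, at 1.04 (0.000857), and after centring on the median, at 0.79 (0.0363). Zfp354a, also called Kid-1, a kidney KRAB repressor, read 1361 and 1031 against 1662 and 1771, a change of 0.53 (0.11). It passed after quantile normalization (0.044) and without unstressed 1 (0.0389).

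The 6 members with the highest mean levels held 2 rises, 1 fall and 3 genes that did not pass. Zfp330 read 13616 and 14907 against 14036 and 13733, with a change of -0.04 and an interval of -0.32 to 0.25, and 0.10 after centring on the median. Zfp706 read 12520 and 19962 against 10685 and 10429, and its change of -0.58 (adjusted p = 0.0823 in limma) became -0.92 (0.00153) without unstressed 1 and -0.68 (0.0414) after quantile normalization. Zfp385b overlapped between groups, at 10379 and 14168 against 8831 and 13098. Zfp219 fell by 0.51, from 10749 and 10249 to 7387 and 7321, a call lost after centring on the median (0.0692) and with either immobilized array left out (0.099 and 0.112). Zfp347 and Zfp655, the remaining pair, are among the rises. On the unstressed arrays Zfp347 read below Zfp266, Zfp110 and Zfp148, which are not in this group, so it lies here by its rise.

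Counts by level are given as a description. In the dimmest of 3 equal parts by mean level 19 of 61 members fell and 0 rose, in the middle part 18 of 60 fell and 3 rose, and in the brightest part 20 of 61 fell and 6 rose. The level is the mean over all 4 arrays, so the change itself helps to set the part: Zfp536 and Zfp131, with unstressed means of 1166 and 1126, started within the range of the dimmest part (560 to 1373) and lie above it by their rise. Conversely, 7 falls had an immobilized mean under the filter and passed it through the unstressed group, where they are high, namely Zfp322a (530), Zfp455 (509), Zfp658 (429), Zfp775 (232), Zfp846 (526), Zfp874b (525) and Zfp956 (394). The median changes were -0.53, -0.50 and -0.25. Other genes in the same ranges of level fell in 17.8%, 28.0% and 23.8% of cases and rose in 7.33%, 8.26% and 13.7%, against 31.1%, 30.0% and 32.8% and 0%, 5.0% and 9.84% of the members. In the middle range the shares that fell were thus close. The 34 members under the filter included 14 with every reading within the Bacillus control range and 28 with at least 1 such reading.

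**Figure D3:**
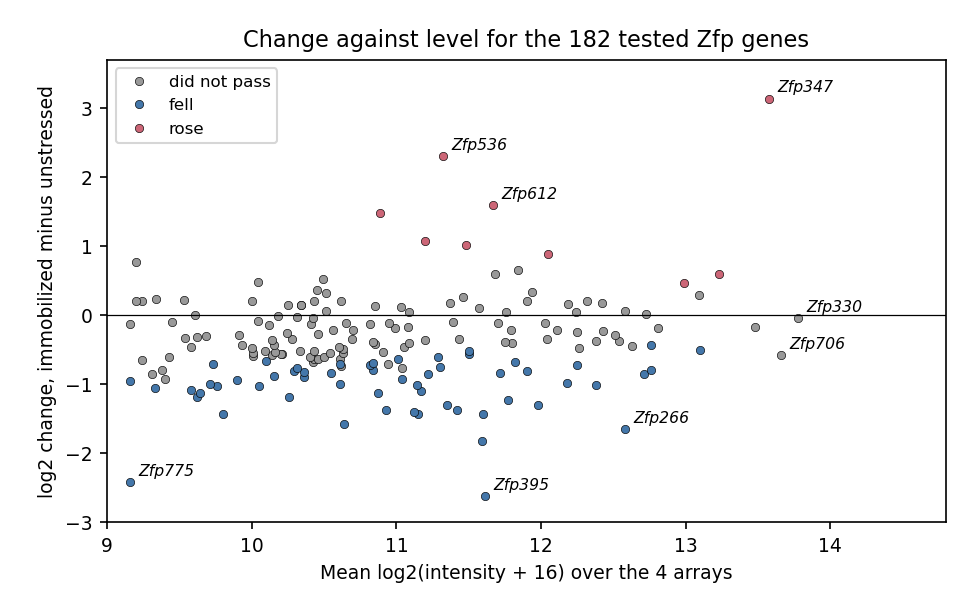
Log2 change, immobilized minus unstressed, against mean log2(intensity + 16) over the 4 arrays for the 182 tested Zfp genes. Blue points fell, red points rose and grey points did not pass, with 8 genes labelled. Blue points occur over the range of levels, and the level includes the immobilized readings, so a rise moves a point to the right and a fall to the left.

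**Figure D4:**
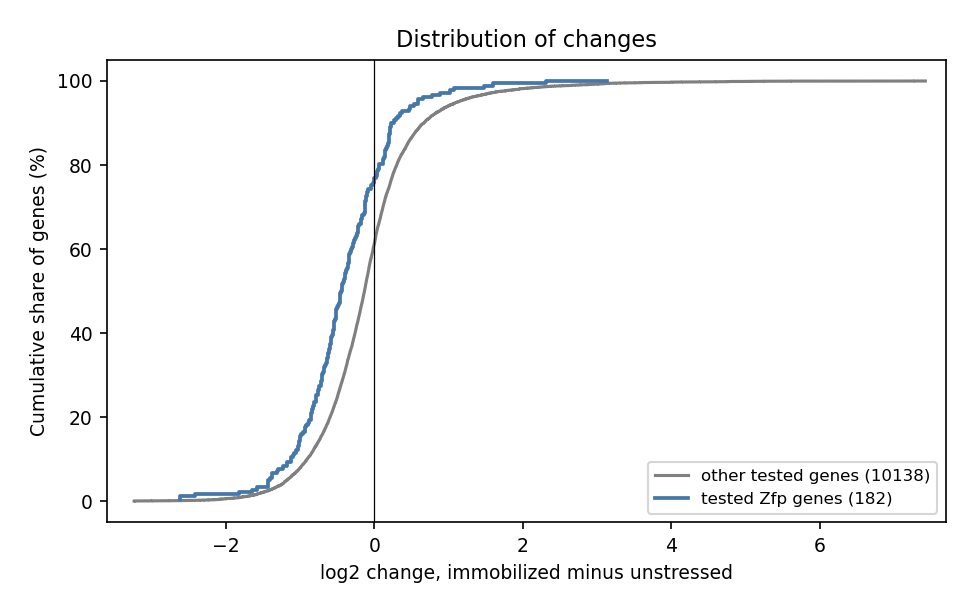
Cumulative share of genes, in percent, up to each log2 change, for the 182 tested Zfp genes (blue) and the 10138 other tested genes (grey), 1 probe set per gene. The blue curve lies above the grey one at 0, at 76.4% against 61.3% of genes below 0.

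Further probe sets of the same gene gave a second reading of the same RNA, not a further sample. Of the 57 genes that fell, 11 had further tested probe sets, 23 in all, of which 22 were lower and 12 passed as lower, with a median of -0.75. All 6 probe sets of Zfp292 fell, by 1.08 to 1.44 on the log2 scale, and both tested probe sets of Zfp346, Zfp422 and Zfp846 fell as well. The exception was a dimmer probe set of Zfp84, at 0.20. Of the 9 genes that rose, 4 had 6 further tested probe sets, all 6 higher and 3 passing. Zfp131 had 1.48 and 1.40, Zfp612 1.60 and 0.80, and Zfp536 2.31, 1.54 and 0.34. The probe set of Zfp536 at 1.54 had an unstressed mean of 410, under the filter, and was tested through the immobilized group, where it is high. In reverse, the dimmer probe set of Zfp846 had an immobilized mean of 334 and was tested through the unstressed group. The further probe sets of Zfp655 had 0.43 and 0.46, with groups that overlapped, and did not pass. Among all tested probe sets 19.4% fell and 11.7% rose.

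Some genes turned on the choice of probe set. The brightest probe sets of Zfp180, Zfp213, Zfp451, Zfp523 and Zfp827 did not pass, while a dimmer one of each fell, at -0.60, -1.40, -0.88, -1.03 and -1.21. The brightest probe set of Zfp593 had 0.20 and a dimmer probe set rose by 1.27. That dimmer probe set had an unstressed mean of 446, under the filter, and was tested through the immobilized group, where it is high. The dimmer probe set of Zfp523 had an immobilized mean of 456, also under the filter, and was tested through the unstressed group. Genes uncalled by their brightest probe set had 40 further tested probe sets, 24 lower and 16 higher, with a median of -0.08. Conversely, some dimmer probe sets of genes that fell did not pass. These were at -0.18 (Zfp148), -0.75 (Zfp329), -0.55 (Zfp503), -0.69 and -0.77 (Zfp68), and -0.23 and 0.20 (Zfp84). The 6 tested probe sets of Zfp91 ran from -0.60 to -0.07 and 2 of them fell.

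**Figure D5:**
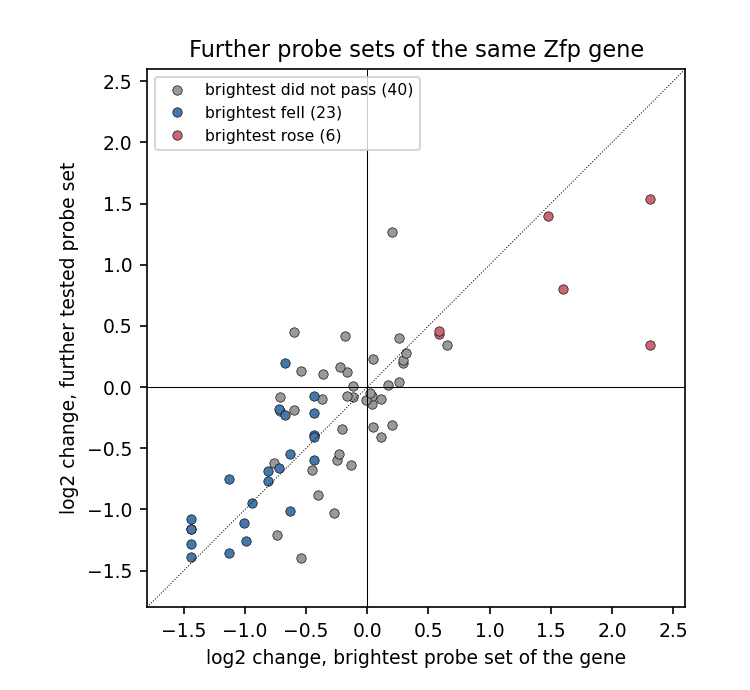
Log2 change of each further tested probe set (vertical) against that of the brightest probe set of the same Zfp gene (horizontal), immobilized minus unstressed. Colours give the call on the brightest probe set: 23 points for genes that fell, 6 for genes that rose and 40 for genes that did not pass. The dotted line marks equal change, and 22 of the 23 blue points lie below 0.

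Many zinc finger genes lie in clusters that arose by duplication. The gene table of the GRCr8 assembly placed 211 members on 21 chromosomes, 178 of them tested. Of 60 tested members with another member within 3 protein-coding genes on either side, 18 fell and 1 rose, with a median of -0.54, where 21.8% of all tested genes fell and 11.2% rose. Of the 118 others, 39 fell and 8 rose, with a median of -0.39. A cluster on chromosome 8 held Zfp266 (-1.65), Zfp846 (-1.13), Zfp426 (-0.64) and Zfp26 (-0.22), of which the first pair fell. A cluster on chromosome 4 held Zfp282, Zfp956 and Zfp467, which fell by 0.83, 0.96 and 1.40, beside Zfp212, Zfp777 and Zfp746, at -0.29, -0.08 and 0.12, and Zfp398, which was too dim to be tested. Among the falls in these clusters, only that of Zfp266 passed with any array left out. The call on Zfp956 was also lost without a filter (adjusted p = 0.0639 in limma). The 415 tested genes of other kinds within the same distance of a member fell in 21.7% and rose in 11.6% of cases, with a median of -0.17.

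Corepressors of KRAB proteins and other genes of chromatin silencing, such as Dnmt1, Ehmt1 and Ehmt2, were followed in a list of 37 symbols. From this list 31 were found and 28 tested. Of these 7 fell and 0 rose, with a median of -0.20, beside 21.8% and 11.2% of all tested genes. Trim28, the corepressor that binds the KRAB box, read 18672 and 17437 against 17751 and 17036, with a change of -0.05 and a 95% interval of -0.34 to 0.23, and its sign turned after centring on the median, at 0.09. Setdb1, the histone methyltransferase it recruits, read 6035 and 6181 against 3401 and 3532 and fell by 0.81, and Atf7ip, the partner that stabilises Setdb1, read 6907 and 6612 against 2730 and 2302 and fell by 1.42. Dnmt1, which copies DNA methylation after replication, read 5922 and 5491 against 1739 and 1937 and fell by 1.63.

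Ehmt2 and Ehmt1, a pair of histone methyltransferases that act together, fell by 1.06 and 0.69. Chd4, a remodelling enzyme of the NuRD complex, and Pphln1, a subunit of the HUSH silencing complex, fell by 0.51 and 0.53. The NuRD members Hdac1, Hdac2, Mbd2 and Mbd3 had 0.14, -0.17, 0.27 and 0.05 and did not pass. The calls on Setdb1, Ehmt1, Chd4 and Pphln1 were lost with either immobilized array left out (adjusted p of 0.0573 to 0.236 in limma), which left 3 falls. Those on Chd4 and Pphln1 were also lost after centring on the median (0.12 and 0.105) without unstressed 2 (0.0861 and 0.0631) and without the intensity trend (0.0822 and 0.0605), that on Chd4 without a filter (0.0646), and that on Pphln1 after quantile normalization (0.0706).

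Other zinc finger families were set beside the Zfp genes. Of 31 tested Zbtb genes, whose proteins join fingers to a BTB domain, 9 fell and 4 rose, or 29.0% and 12.9%, with a median of -0.35, where 21.8% of all tested genes fell and 11.2% rose. Zbtb10, Zbtb21, Zbtb38 and Zbtb2 rose by 1.56, 1.40, 1.23 and 1.04. The 9 falls ran from -0.62 (Zbtb22) to -1.05 (Zbtb14). Zbtb10 had an unstressed mean of 363, under the filter, and was tested through the immobilized group, where it is high. In reverse, Zbtb14 had an immobilized mean of 422 and was tested through the unstressed group. Of 8 tested Zscan and Zkscan genes, whose proteins carry a SCAN domain, 3 fell and 0 rose, or 37.5% and 0%, with a median of -0.57. The Zfp genes' 31.3% and 4.95% were not tested against these shares.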

How the data were processed

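The authors deposited 1 linear intensity per probe set and array for 4 arrays of rat adrenal medulla, and the values show a common scaling, with a trimmed mean of 2501 on each array without 2% of values at each end. The probe summarisation method was not given in the sources used here. The 57 control probe sets were left out, leaving 31042, and no further scaling was applied. Groups come from the labels, and replicates were numbered in accession order. Gene names follow the platform annotation held by GEO: 20826 probe sets name a single gene, 436 several and 9780 none.

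Values were taken as log2(intensity + 16), and probe sets whose mean lay below the 40th percentile (intensity near 543.8) stayed out of the tests. The fit used limma 3.58.1 in R 4.3.3 (eBayes with an intensity trend), two-sided, adjusted over 18625 probe sets. It was tested on simulated data. With 2 arrays per group an exact permutation test cannot go below 0.333, so none is given. The members and lists were chosen with earlier results of these data known. Genes named are the 12 largest falls and rises past the threshold without overlap, the 6 brightest members, members with a known role, and up to 8 called corepressor genes with Trim28 and Setdb1. Others were chosen after their values were seen. Alternatives covered scaling, offset, filter, variance model, threshold, choice of probe set and leaving out each array. Protein sequences were not used here, so members were not split by KRAB box.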

Additional observations from a re-analysis of the deposited data

How the results depend on the processing

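The direction of the Zfp median, more falls than rises among the Zfp genes, and more falls than rises in the corepressor list held under every alternative run. The runs reuse the arrays on which the set was chosen with its direction known. They show dependence on processing only and are no further support. Changes of variance model or threshold leave the median as it is. The median log2 change of the tested Zfp genes was -0.32 after quantile normalization and -0.30 with arrays centred on their medians. With 1 array left out it ran from -0.48 to -0.39, the Zfp genes called numbered 17 to 74, the falls 14 to 65, the rises 3 to 15, and the corepressor genes called 3 to 8. A lone array was then taken to vary as the remaining pair does. All 17 falls without immobilized 1 and all 14 without immobilized 2 were among the 57. Of the 57 falls 41 stayed past the threshold under both other scalings, and 12 falls and 3 rises passed in every one of the 12 refits that tested them. Among the genes named by rule, Zfp330, Zfp57, Zfp385b, Zfp521 and Trim28, none of which passed, changed sign in at least 1 refit. Low intensities limit the 34 dim members. The split by KRAB box was not run. No paired analysis was possible because the labels number the samples 1 to 4 without shared numbers between groups.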

Other observations

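Among the 34 dim members, which were not tested, some readings stood apart between the groups. Zfp112 read 553 and 433 without stress against 156 and 132 after immobilization, and Zfp136 read 855 and 623 against 377 and 321. Zfp90 read 306 and 385 against 54.9 and 144, and a dimmer probe set of it read 576 and 388 against 64.5 and 41.1. Zfp469, whose human counterpart is linked to brittle corneas, read 86.8 and 100 against 500 and 221. Most of these low readings lie within or near the range of the Bacillus controls, 2.18 to 257, and these genes were chosen after their values were seen.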
